A study of Mus musculus with 18 samples.

Results

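Metalloproteinases are zinc-dependent enzymes that cut the proteins between cells, and their tissue inhibitors bind and block them. The genes described here are those whose name in the deposited count table is Mmp followed by a number, Adamts followed by a number, or Timp1 to Timp4. By this naming rule, which used no measured value, 41 of 25918 gene names were members: 19 Mmp genes (matrix metalloproteinases), 18 Adamts genes (secreted proteases with thrombospondin repeats) and 4 Timp genes (the inhibitors).

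RNA was measured in BALB/c mice in cortex and in skull (the interparietal bone, at the back of the skull roof), from tissue that held the ischemic region and its surroundings. The study's question, from its title and design text, is how expression changes in brain and in skull after ischemic injury. There were 6 groups with 3 libraries each: cortex controls, cortex at 2 and 6 days after injury, skull controls, and skull at 2 and 4 days after injury. The labels give no age, sex or sham procedure. They do not say whether cortex and skull came from the same mice, or whether the 3 libraries of a group came from separate animals, so p-values measure the spread between these libraries, which may be technical.

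Matrix metalloproteinases are made as inactive proenzymes, some secreted and some tethered to the cell membrane, and become active when their propeptide is removed. In ischemic brain, Mmp9 and Mmp3 are known for cutting the basement membrane and the junctions of the blood-brain barrier. In bone, Mmp13 is the collagenase of osteoblasts, osteocytes and hypertrophic cartilage, and Mmp9 is abundant in osteoclasts and neutrophils. Several Adamts proteases cleave the large proteoglycans of cartilage and of the brain's extracellular matrix, while others trim procollagens. Each Timp protein blocks many of these enzymes, with differing preference.

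Before the values, the start of some genes is shown, because 6 Mmp members (Mmp13, Mmp12, Mmp3, Mmp10, Mmp8 and Mmp27) lie in one cluster of Mmp genes on mouse chromosome 9. They lay between positions 7272514 (the start of Mmp13) and 7581885 (the end of Mmp27) of build mm10, all on the forward strand. For 4 of them the 120 bases before a start site are given, from the RefSeq promoter table for GRCm38.p6. They run 5′ to 3′ on the strand of the gene, with each match to the AP-1 motif TGANTCA in capitals. The 4 shown are those of the 6 with a match. Mmp8 and Mmp27 hold none in the 250 bases before their start sites and are not shown. The Mmp12 entry is the second of its start sites in the table, inside the annotated gene, and its first start site holds no match. Timp1, on chromosome X, is shown beside them as the inhibitor that moved most, and holds no match in this window.
Mmp13, chr9:7272394-7272513, forward strand: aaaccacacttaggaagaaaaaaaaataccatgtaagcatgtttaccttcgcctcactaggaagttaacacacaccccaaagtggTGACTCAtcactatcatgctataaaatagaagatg
Mmp3, chr9:7445702-7445821, forward strand: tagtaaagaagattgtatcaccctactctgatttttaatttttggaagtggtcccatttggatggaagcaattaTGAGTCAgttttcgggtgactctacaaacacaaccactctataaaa
Mmp10, chr9:7502222-7502341, forward strand: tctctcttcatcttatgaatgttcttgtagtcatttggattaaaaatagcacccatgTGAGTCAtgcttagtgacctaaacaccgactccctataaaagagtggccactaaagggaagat
Mmp12, chr9:7347254-7347373, forward strand: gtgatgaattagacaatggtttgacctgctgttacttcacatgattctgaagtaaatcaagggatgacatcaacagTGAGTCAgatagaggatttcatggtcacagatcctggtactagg
Timp1, chrX:20870046-20870165, forward strand: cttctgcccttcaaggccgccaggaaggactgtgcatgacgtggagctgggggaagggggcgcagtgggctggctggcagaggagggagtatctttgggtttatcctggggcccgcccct
The table held 28 of the 41 members. Over the 250 bases before the start site, searched on both strands, TGANTCA occurred at 4 of the members' 30 start sites (13.3%, the 4 shown) and in 6.75% of all 32851 promoters in the table, which lists start sites. The RUNX motif TGTGGT occurred at 4 start sites (13.3%, 1 each of Mmp13, Mmp14, Mmp23 and Mmp27) and in 14% of all promoters. Such matches describe letters in the window and do not show that a factor binds there.

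Library totals were 13005050 to 27654269 counts in cortex and 13142770 to 15445503 in skull. Levels are given as CPM, counts relative to the library's total after scaling within each tissue's 9 libraries, as the value of replicates 1, 2 and 3 in that order. Changes are log2 changes ± standard error (SE), and a gene rose or fell where edgeR's quasi-likelihood test gave a Benjamini-Hochberg adjusted p under 0.05 over all genes tested. The tissues matched their labels: the summed level of 5 neuron markers was 3803 to 7691 CPM in cortex, and that of 5 osteoblast markers was 1601 to 9722 CPM in skull. Skull controls also held 444 to 508 CPM of the neuron markers, against 31.8 to 120.2 CPM at day 2 and 67.9 to 94.0 CPM at day 4. The 4 choroid plexus markers were uneven, at 398, 8028 and 1795 CPM in skull at day 2, 258 to 280.2 CPM in skull controls and 212 CPM in replicate 2 of cortex at day 2 against 7.44 and 8.53 CPM in the other libraries of that group. In bulk tissue, fewer cells of a type and less RNA per cell cannot be told apart.

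In cortex at day 2, the inhibitor Timp1, the proteoglycan-cleaving protease Adamts1, and the gelatinase Mmp9 were far above control, and Mmp3 and Mmp12 appeared from a control level at or near 0 counts. Of 38 members tested there, 11 rose and 1 fell. Among all genes tested 24.7% were called, 14.7% upward and 9.99% downward. The median log2 change of the members was 0.36, and that of all genes tested was 0.000354. Libraries of the groups did not overlap for 20 of the 38 members, against 39.0% of all genes tested.

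At day 6, Mmp12 and Mmp13 were at their highest in cortex, while Timp1, Adamts1 and Mmp9 were lower than at day 2. Of the 38 members, 10 rose against control, where 10.3% of all genes were called (7.93% upward and 2.39% downward). Downward, 3 members had an unadjusted p under 0.05 by edgeR and 0 after adjustment, against 1 by DESeq2 and 0 by limma voom. Against day 2, 5 members rose and 5 fell, with 11.6% of all genes called (5.30% upward and 6.26% downward). The members' median was 0.57 against control and 0.05 against day 2, beside -0.02 for all genes in both. Both cortex time points were compared with the same control libraries. Library ranges did not overlap for 16 of the 38 members against control (30.9% of all genes) and for 17 against day 2 (30.5% of all genes).

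In skull at day 2, Mmp13 and Timp1 rose from levels that were already high, Mmp3 and Mmp10 rose more steeply, and Timp3, Timp4 and Mmp24 fell. Of the Adamts genes, 7 rose and 4 fell. Of 39 members tested, 15 rose and 9 fell, where 34.4% of all genes were called (17.8% upward and 16.6% downward). Ranges did not overlap for 27 of 39 members, against 47.7% of all genes. The members' median log2 change was 0.13, and that of all genes was -0.01.

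By day 4 in skull, Mmp13, Mmp3, Timp1 and Adamts1 had fallen from their day 2 level, while Mmp8 was higher than at either other point. Against control, 8 members rose and 3 fell, with 10.6% of all genes called (5.83% upward and 4.79% downward). Against day 2, 7 members rose and 9 fell, with 21.6% of all genes called (10.6% upward and 11.1% downward). The members' median was 0.32 against control and 0.15 against day 2, beside 0.02 for all genes in both, and both skull time points share the control libraries. Ranges did not overlap for 17 members against control (31.1% of all genes) and 20 against day 2 (42.6% of all genes). The calls at day 4 against control depended on single libraries: without replicate 3 of the skull controls 0 of the 39 members were called, without replicate 2 or 3 of day 4 there were 2, and without control replicate 1 there were 5. Calls over all genes fell as well. They went from 1853 to 10 without control replicate 3, to 590 and 237 without day 4 replicate 2 and 3, and to 1270 without control replicate 1.

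**Figure D1:**
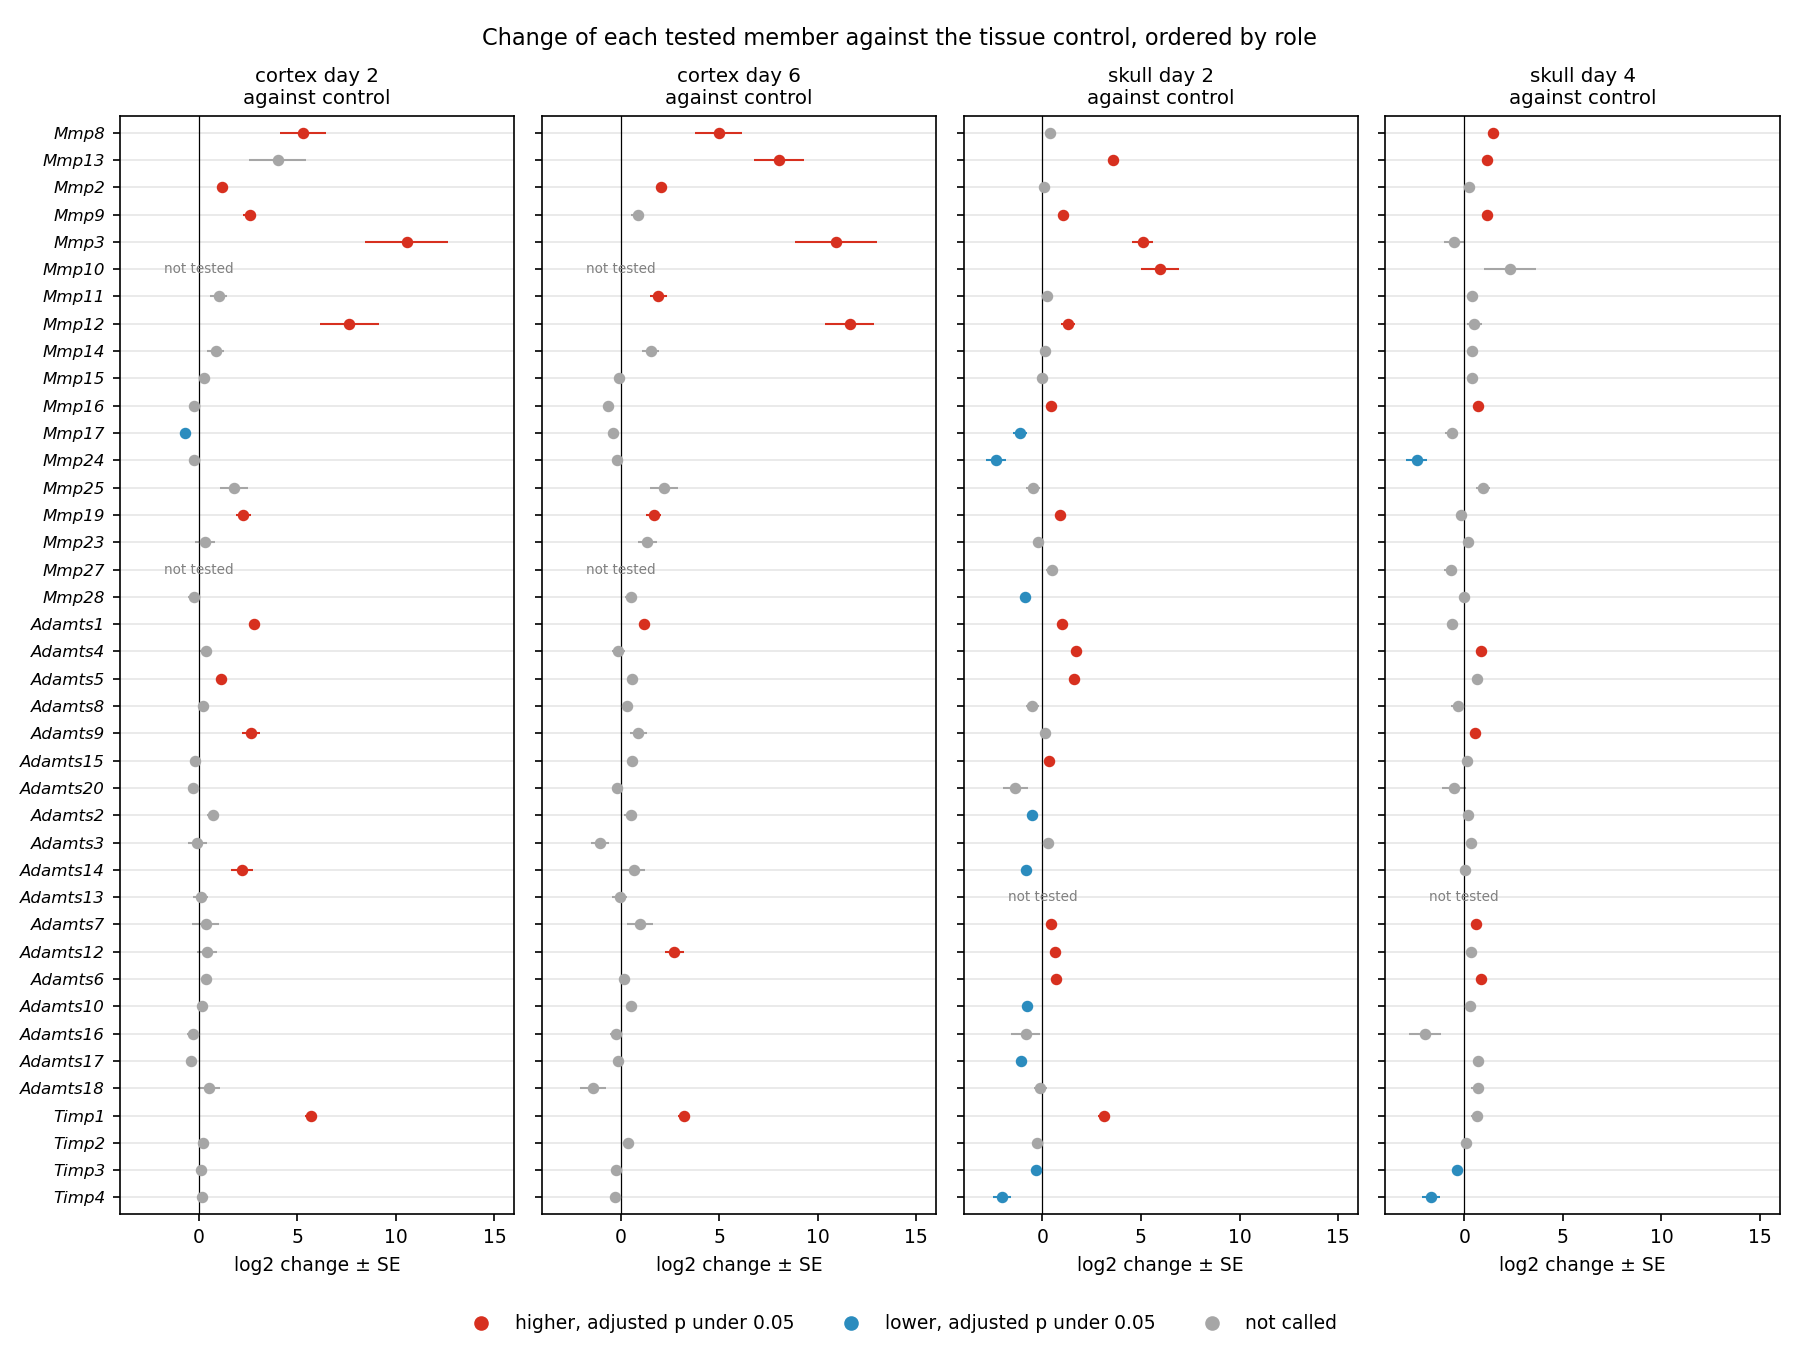
Log2 change ± SE (horizontal axis) of each tested member (vertical axis, ordered by role) against the control of its tissue, in cortex at days 2 and 6 and in skull at days 2 and 4; colour marks members whose adjusted p was under 0.05. The widest bars belong to Mmp3, Mmp12 and Mmp13 in cortex and Mmp10 in skull, whose control libraries held few or no counts, so that their fitted size depends on the prior count. The same limit holds for Mmp8 in cortex, with 4 counts in the controls.

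Among the collagenases, which cut fibrillar collagen, Mmp13 had the highest CPM of the members in each injured skull library, and in skull controls overlapped with Timp2 and Mmp2. It stood at 1016, 1326 and 1104 CPM in skull controls, 12871, 11112 and 17334 CPM at day 2, and 2156, 3319.5 and 2085 CPM at day 4. All 3 day 2 libraries were above all others, and all 3 day 4 libraries were above the controls. Mmp13 alone took 0.102% to 0.146% of all counts in skull controls. At day 2 the share was 1.10% to 1.71%, and at day 4 it was 0.197% to 0.306%. Mmp13 rose at day 2 (3.58 ± 0.24, adjusted p = 4.23e-05) and at day 4 (1.13 ± 0.22, adjusted p = 0.0182), and fell between these days (-2.45 ± 0.23, adjusted p = 0.000280). Without skull control replicate 3, the day 4 call against control ended (adjusted p = 0.0842). Beside this, the summed level of the osteoblast markers was 1601 to 2076 CPM in controls, 8231 to 9722 CPM at day 2 and 2613 to 4885 CPM at day 4. Of these 5 markers 1 rose and 1 fell at day 2: Ibsp, bone sialoprotein, had a log2 change of 3.56 ± 0.36, and Bglap2, an osteocalcin gene, one of -2.49 ± 0.49. Their part in the rise of Mmp13 was not tested.

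In cortex Mmp13 was nearly absent from controls, at 0.0419, 0 and 0.333 CPM, and stood at 2.22, 2.87 and 0.971 CPM at day 2 and 6.59, 61.4 and 31.1 CPM at day 6. The 3 groups did not overlap, and the day 6 libraries spread the most, with replicate 1 lowest. The day 2 change was not called (4.00 ± 1.47, adjusted p = 0.0970), whereas Mmp13 rose at day 6 against control (8.03 ± 1.27, adjusted p = 0.00869) and against day 2 (4.03 ± 0.92, adjusted p = 0.0350). The call against control was lost with limma voom (adjusted p = 0.142), and that against day 2 was lost when any of 4 single libraries was left out (adjusted p of 0.0831 to 0.118). Osteoblast markers in these cortex libraries summed to 15.1 to 29.2 CPM in all 9. The fibroblast markers summed to 71.4 to 143 CPM in controls, 202 to 350.0 CPM at day 2 and 294 to 1203 CPM at day 6, with replicate 1 lowest at day 6 as for Mmp13. The chondrocyte markers did likewise at day 6, at 9.06, 31.3 and 16.8 CPM, and 2 of 4 tested rose against control. Replicate 1 was also lowest at day 6 for the macrophage, microglia, osteoclast and endothelial markers, among others. The part of these cell types in the result was not tested.

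Mmp8, the collagenase stored in neutrophil granules, was followed in both tissues. Cortex levels of Mmp8 were 0.168, 0 and 0 CPM in controls, 2.55, 2.26 and 2.16 CPM at day 2 and 0.103, 3.07 and 2.50 CPM at day 6. Day 2 lay above all controls (5.28 ± 1.17, adjusted p = 0.00752), while at day 6 replicate 1 fell within the control range although the group passed the test (4.98 ± 1.18, adjusted p = 0.0223). That day 6 call ended when any of 4 single libraries was left out (adjusted p of 0.0709 to 0.0975) and in 3 other alternatives. In skull Mmp8 was at 26.6, 39.1 and 33.8 CPM in controls, 51.3, 38.8 and 42.1 CPM at day 2 and 78.8, 69.0 and 126 CPM at day 4. The day 2 change was not called (0.41 ± 0.24, adjusted p = 0.215), but Mmp8 rose at day 4 against control (1.46 ± 0.24, adjusted p = 0.0140) and against day 2 (1.05 ± 0.24, adjusted p = 0.0162). The first of these calls ended without skull control replicate 3 (adjusted p = 0.0667) and the second without day 2 replicate 2 or replicate 3 (adjusted p = 0.0584 and 0.0582).

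Neutrophil markers were read in the same libraries. In skull the 10 markers summed to 1341 to 2438 CPM in controls, 2547 to 2845 CPM at day 2 (0 of 10 called by edgeR, 2 at an unadjusted p under 0.05) and 4433 to 8457 CPM at day 4 (8 of 10 rose). In cortex they summed to 1.52 to 3.06 CPM in controls, 40.3 to 53.2 CPM at day 2 and 2.01 to 6.80 CPM at day 6. Of the 5 markers tested there, 3 rose at day 2 and 2 rose at day 6 against control. At day 6 Mpo and Elane, which encode granule enzymes of neutrophil precursors, had no count (both chosen after their values were seen). Mpo had no count in cortex controls either. In replicates 2 and 3 of cortex at day 6 the sums were 2.01 and 2.99 CPM, within the control range, while Mmp8 there was as high as at day 2. The part of neutrophils in the Mmp8 result was not tested.

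Of the gelatinases, which digest denatured collagen and basement membrane collagen, Mmp9 rose early in both tissues. Cortex levels of Mmp9 were 1.47, 0.930 and 1.83 CPM in controls, 6.93, 12.2 and 6.42 CPM at day 2 and 2.01, 2.84 and 2.91 CPM at day 6. The day 2 libraries were above all 6 others. Mmp9 rose at day 2 (2.60 ± 0.33, adjusted p = 9.11e-05) and fell between day 2 and day 6 (-1.72 ± 0.32, adjusted p = 0.00447), where its change against control was not called (0.87 ± 0.34, adjusted p = 0.130). In skull it was at 295, 366 and 315 CPM in controls, 727, 532 and 781 CPM at day 2 and 452, 923 and 788 CPM at day 4. Both injured groups were above the controls and overlapped with each other. Mmp9 rose at day 2 (1.06 ± 0.25, adjusted p = 0.0130) and at day 4 (1.15 ± 0.25, adjusted p = 0.0289), and the day 4 call ended when any of 4 single libraries was left out (adjusted p of 0.0761 to 0.105). The osteoclast markers, a cell type known for Mmp9, summed to 1148 to 1199 CPM in skull controls, 1475 to 2119 CPM at day 2 and 1253 to 2580 CPM at day 4. Of the 6 markers 2 rose at day 2, and at day 4 edgeR called 0 of 6, with 3 at an unadjusted p under 0.05. The neutrophil markers, given under Mmp8, were highest at day 2 in cortex as Mmp9 was, and in skull 8 of 10 rose at day 4. The part of either cell type in the result was not tested.

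Mmp2, the gelatinase of fibroblasts and other stromal cells, increased at each time point in cortex. Its levels were 2.76, 2.60 and 2.83 CPM in controls, 4.77, 7.89 and 5.66 CPM at day 2 and 8.24, 12.4 and 13.5 CPM at day 6, with no overlap between the groups. Mmp2 rose at day 2 (1.16 ± 0.25, adjusted p = 0.00392), at day 6 (2.05 ± 0.25, adjusted p = 0.000202) and between them (0.89 ± 0.24, adjusted p = 0.0288). The last call ended when any of 4 single libraries was left out (adjusted p of 0.0835 to 0.135). In skull Mmp2 stood much higher, and its groups overlapped, at 1198, 935 and 1092 CPM in controls, 1176, 1090.0 and 1165 CPM at day 2 and 1151, 1404 and 1253 CPM at day 4. Neither change against the skull controls was called (0.09 ± 0.11, adjusted p = 0.563 at day 2, and 0.24 ± 0.11, adjusted p = 0.197 at day 4).

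The stromelysin Mmp3, which cuts many matrix proteins and activates other proenzymes, had no count in any cortex control. At day 2 it was at 4.49, 15.3 and 7.44 CPM and at day 6 at 2.27, 21.4 and 12.1 CPM. Against the floor of 3 counts over the 3 controls, it was at least 230-fold higher at day 2 (adjusted p = 0.0210) and at least 307-fold higher at day 6 (adjusted p = 0.0346), a bound that covers counting error only. At day 2 leaving out any of 3 single libraries ended the call (adjusted p of 0.0552 to 0.0605), and at day 6 any of 5 (adjusted p of 0.0576 to 0.0922). In skull Mmp3 was at 4.37, 18.2 and 9.90 CPM in controls, 342, 274 and 486 CPM at day 2 and 8.15, 9.73 and 4.99 CPM at day 4. The day 2 libraries stood far above both other groups, which overlapped. Mmp3 rose at day 2 (5.08 ± 0.55, adjusted p = 0.000713) and fell by day 4 (-5.59 ± 0.56, adjusted p = 0.00103).

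Mmp10, the other stromelysin and a neighbour of Mmp3, stayed low. Skull levels of Mmp10 were 0.0672, 0 and 0 CPM in controls, 1.63, 0.800 and 3.35 CPM at day 2 and 0.257, 0.0824 and 0.0779 CPM at day 4. Mmp10 rose at day 2, on 87 counts against 1, a ratio of 85.8 with a 95% counting interval of 15.0 to 3426 (adjusted p = 0.00151), and fell by day 4 (-3.65 ± 0.74, adjusted p = 0.00817). In cortex Mmp10 did not pass the filter on low counts, with no count in controls, 0, 0.103 and 0 CPM at day 2 and 0.0515, 0.824 and 1.05 CPM at day 6. The day 6 sum of 32 counts was at least 14.9-fold above the floor of the controls. Mmp3 and Mmp10 resemble each other in sequence, but 5 of the 1702 stretches of 100 bases in Mmp3 transcripts occur in another member.

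Mmp11, a stromelysin in name that is made by stromal cells, was at 2.14, 1.26 and 0.708 CPM in cortex controls, 2.16, 3.69 and 2.43 CPM at day 2 and 2.88, 7.05 and 5.57 CPM at day 6. The injured groups lay above the controls. Mmp11 rose at day 6 (1.91 ± 0.42, adjusted p = 0.00977) and was not called at day 2 (1.01 ± 0.43, adjusted p = 0.103). The day 6 call ended without day 6 replicate 2 (adjusted p = 0.0635) or control replicate 2 (adjusted p = 0.0518). In skull Mmp11 ranged from 15.4 to 27.6 CPM, with no change called.

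Mmp12, the macrophage elastase, rose at both cortex time points. Only replicate 2 of the controls held it, with 0, 0.112 and 0 CPM in the 3 controls, and it stood at 4.32, 7.94 and 15.2 CPM at day 2 and 53.9, 237 and 144 CPM at day 6. The 3 groups did not overlap. Against the 3 counts of the controls the ratio was 228 at day 2 (95% counting interval 77.7 to 1111, adjusted p = 0.0118) and 3720 at day 6 (1273 to 18045, adjusted p = 0.00237), and Mmp12 rose again between these days (3.99 ± 0.70, adjusted p = 0.0166). The day 2 call ended with limma voom (adjusted p = 0.117) and without control replicate 2 or 3 (adjusted p = 0.0771 and 0.0540), and the call between days ended without day 6 replicate 3 (adjusted p = 0.0528) or day 2 replicate 2 (adjusted p = 0.0551). Macrophage and phagocyte markers summed to 107 to 128 CPM in cortex controls, 482 to 689 CPM at day 2 (7 of 8 rose) and 874 to 2840 CPM at day 6 (8 of 8 rose), with day 6 replicate 1 lowest for the markers and for Mmp12. Their part in the result was not tested.

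In skull Mmp12 was at 3.63, 3.99 and 2.73 CPM in controls, 7.26, 8.33 and 9.53 CPM at day 2 and 8.08, 2.80 and 3.82 CPM at day 4. The day 2 libraries were above the controls, and the day 4 libraries overlapped with both groups. It rose at day 2 (1.28 ± 0.36, adjusted p = 0.0209), a call that ended without day 2 replicate 3 (adjusted p = 0.0671) or control replicate 3 (adjusted p = 0.0862). The macrophage markers did not move as one there: 1 of 8 rose and 3 fell at day 2, with sums of 1173 to 1274 CPM in controls and 1094 to 1404 CPM at day 2.

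**Figure D2:**
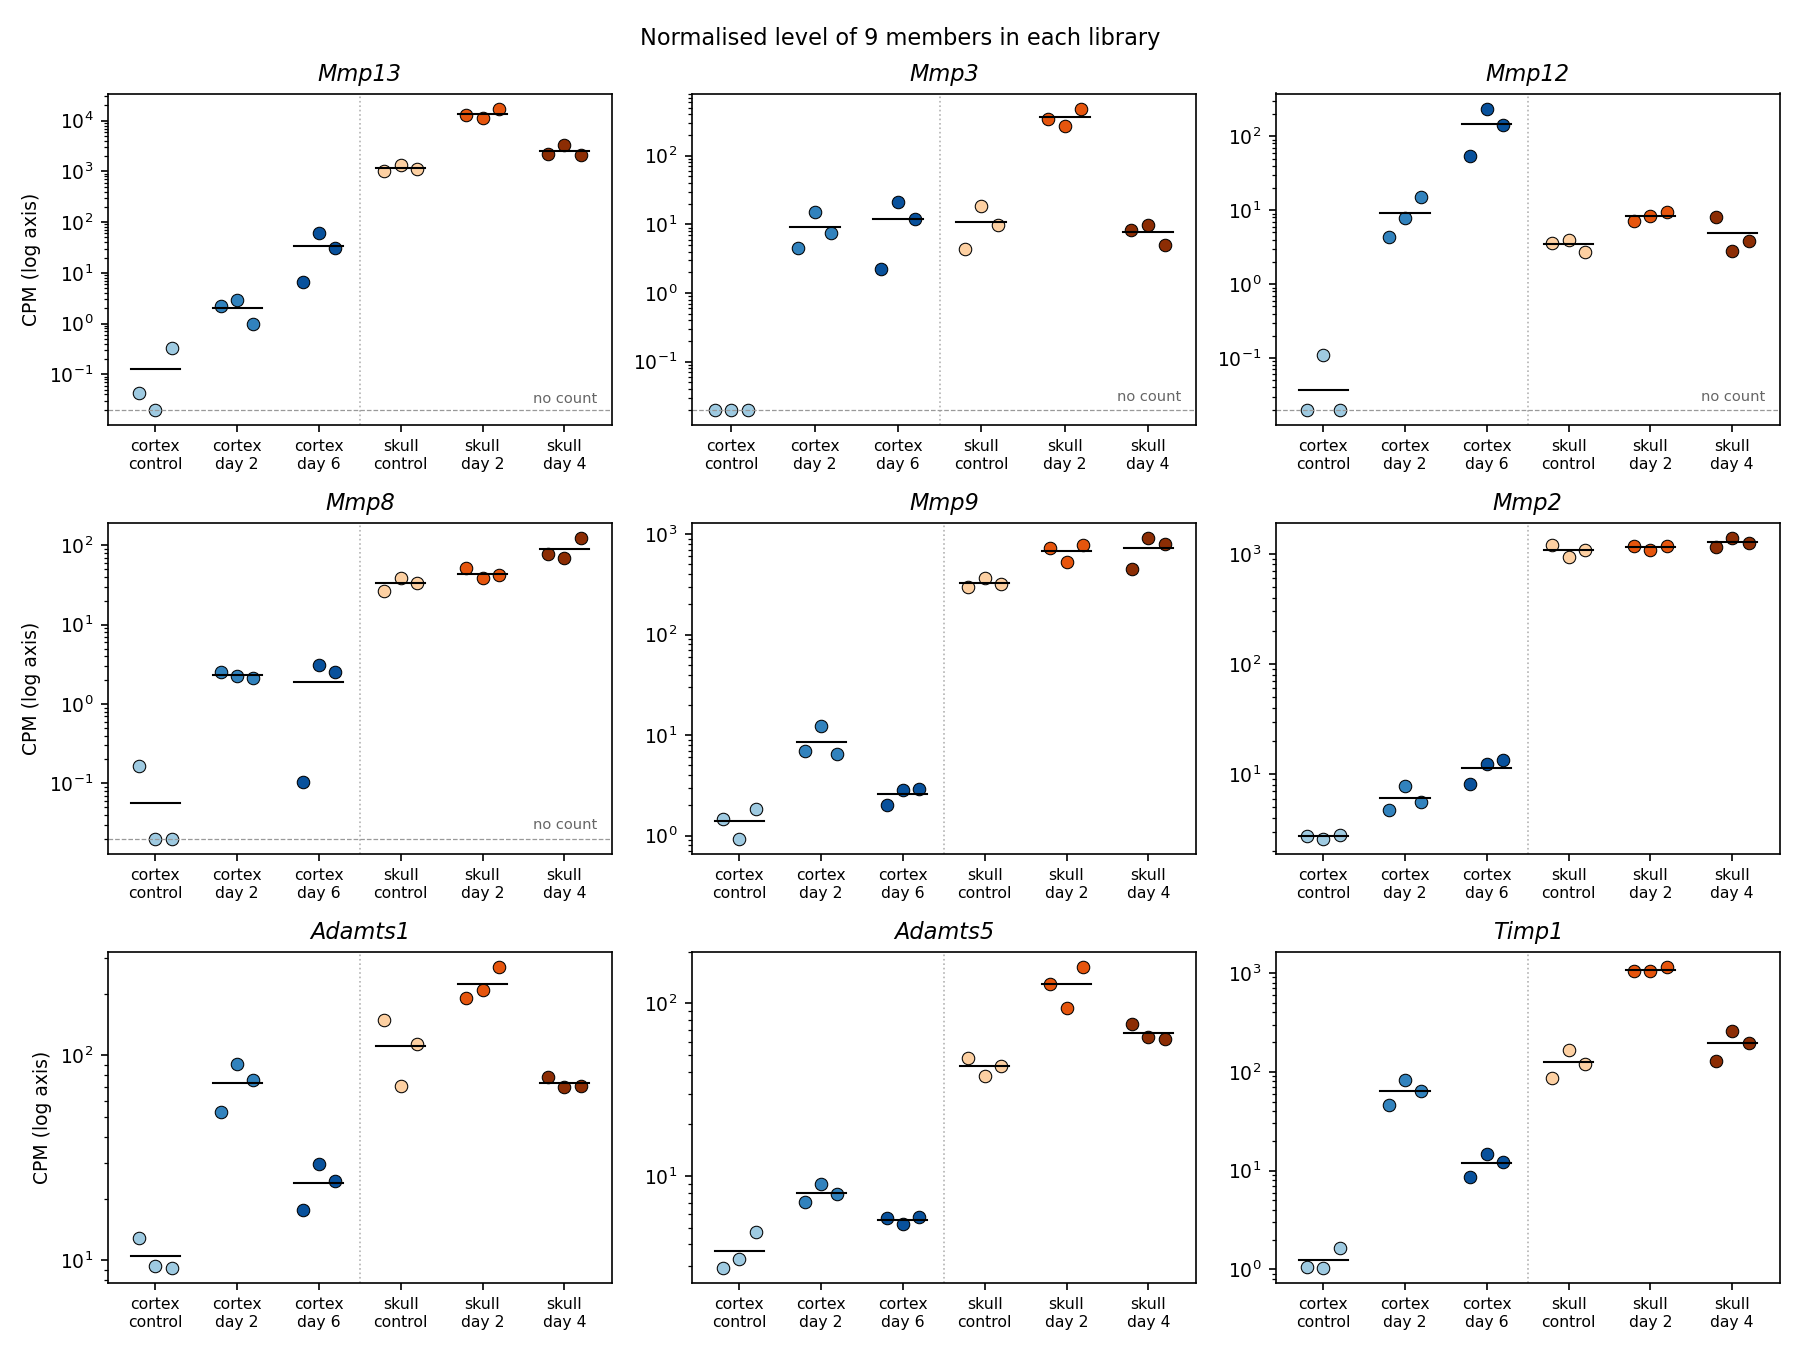
Level in CPM (vertical log axis) of 9 members in each of the 18 libraries, by group (horizontal axis); points are libraries, bars are group means, and points on the dashed line had no count. Mmp13, Mmp3 and Timp1 peak in the 3 skull day 2 libraries, while Mmp12 is highest in the 3 cortex day 6 libraries.

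The 6 membrane-type metalloproteinases are anchored at the cell surface. Mmp14, which activates the Mmp2 proenzyme, was not called in any comparison within a tissue, although its cortex levels were 24.8, 14.5 and 15.9 CPM in controls, 25.3, 44.4 and 30.5 CPM at day 2 and 24.9, 74.5 and 60.9 CPM at day 6. Each injured library lay above the highest control, and the change at day 6 was 1.54 ± 0.43, adjusted p = 0.0705. In skull Mmp14 ranged from 562 to 890.5 CPM.

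Mmp17 and Mmp24, both known from neurons, were the membrane-type members that fell. Mmp17 in cortex was at 154, 243 and 245 CPM in controls, 113, 133 and 151 CPM at day 2 and 177, 146 and 167 CPM at day 6. Its day 2 libraries lay just below the lowest control, and it fell at day 2 (-0.69 ± 0.17, adjusted p = 0.0115). Without day 2 replicate 2 this call ended (adjusted p = 0.0568). The 5 neuron markers fell in the same comparison (5 of 5), from 5750 to 7691 CPM summed in controls, against 3803 to 4777 CPM at day 2, and their part in the result was not tested.

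In skull Mmp17 was at 12.3, 4.26 and 9.70 CPM in controls, 4.27, 4.40 and 3.29 CPM at day 2 and 4.68, 6.76 and 5.38 CPM at day 4. It fell at day 2 (-1.13 ± 0.35, adjusted p = 0.0307), although control replicate 2 lay within the day 2 range, and leaving out any of 5 single libraries ended the call (adjusted p of 0.0633 to 0.100). Mmp24 in skull was at 8.34, 2.03 and 7.79 CPM in controls, 0.678, 1.67 and 1.18 CPM at day 2 and 1.09, 0.907 and 1.40 CPM at day 4. Every injured library was below every control. Mmp24 fell at day 2 (-2.35 ± 0.53, adjusted p = 0.00803) and at day 4 (-2.41 ± 0.53, adjusted p = 0.0250), the latter call ending without any of 5 single libraries (adjusted p of 0.0540 to 0.0954). In cortex Mmp24 was not called, at 30.9, 30.8 and 28.3 CPM in controls, 25.9, 25.7 and 24.3 CPM at day 2 and 24.8, 25.4 and 30.9 CPM at day 6. The 5 neuron markers in skull fell in both comparisons (5 of 5), as given above, and the 4 astrocyte markers summed to 119 to 449 CPM in skull controls against 27.9 to 91.2 CPM at day 2 and 35.0 to 55.9 CPM at day 4. The part of brain-derived transcripts in the skull controls in these falls was not tested.

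Mmp16, a membrane-type enzyme found in brain and bone, was at 36.6, 28.9 and 32.3 CPM in skull controls, 55.1, 41.4 and 37.2 CPM at day 2 and 46.5, 59.3 and 53.1 CPM at day 4. Mmp16 rose at day 2 (0.45 ± 0.16, adjusted p = 0.0490) and day 4 (0.70 ± 0.16, adjusted p = 0.0257). The day 2 call ended without any of 4 single libraries (adjusted p of 0.0664 to 0.171) and that at day 4 without any of 3 (adjusted p of 0.0882 to 0.0958). In cortex it was not called, at 17.9, 19.0 and 14.0 CPM in controls, 17.4, 11.6 and 14.2 CPM at day 2 and 8.34, 12.7 and 11.9 CPM at day 6.

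Mmp25, the membrane-type enzyme of leukocytes, was at 3.36, 7.57 and 3.82 CPM in skull controls, 4.61, 3.33 and 2.63 CPM at day 2 and 8.60, 7.42 and 12.9 CPM at day 4. It rose between days 2 and 4 (1.45 ± 0.36, adjusted p = 0.0191), and the call ended without day 4 replicate 3 or day 2 replicate 2 or 3 (adjusted p of 0.0647 to 0.0775). In cortex Mmp25 was at 0.168, 0.149 and 0.250 CPM in controls, 0.610, 1.13 and 0.270 CPM at day 2 and 0.360, 0.962 and 1.37 CPM at day 6, with no call. The neutrophil markers given for Mmp8 rose in the same skull comparison (8 of 10), and their part was not tested. The remaining membrane-type member, Mmp15, ranged from 21.5 to 34.4 CPM in cortex and 11.3 to 21.8 CPM in skull, with no change called.

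Among the other Mmp genes, Mmp19, a secreted enzyme of vessel wall, myeloid and epithelial cells, rose in both tissues at day 2. In cortex Mmp19 was at 0.880, 0.781 and 0.833 CPM in controls, 3.49, 5.23 and 3.34 CPM at day 2 and 1.49, 3.62 and 2.91 CPM at day 6. Every injured library was above the controls, and Mmp19 rose at day 2 (2.27 ± 0.37, adjusted p = 0.000522) and day 6 (1.68 ± 0.37, adjusted p = 0.00982). The day 6 call ended without day 6 replicate 2 (adjusted p = 0.0687). Skull levels of Mmp19 were 24.0, 36.2 and 25.1 CPM in controls, 49.2, 46.5 and 60.5 CPM at day 2 and 23.2, 31.1 and 22.5 CPM at day 4. The day 2 group stood above both others, as a rise against control (0.87 ± 0.19, adjusted p = 0.00675) and a fall by day 4 (-1.03 ± 0.19, adjusted p = 0.00573). Of the exonic bases of Mmp19, 1001 overlap annotated neighbours on the opposite strand, whose reads cannot be told apart without strand.

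Mmp28, also called epilysin, was at 8.61, 11.2 and 9.42 CPM in skull controls, 4.54, 5.73 and 5.46 CPM at day 2 and 10.8, 8.57 and 9.20 CPM at day 4. The day 2 group was below both others, with a fall against control (-0.89 ± 0.18, adjusted p = 0.00449) and a rise by day 4 (0.86 ± 0.18, adjusted p = 0.00903). In cortex Mmp28 was at 2.01, 2.71 and 2.12 CPM in controls, 1.99, 1.79 and 1.99 CPM at day 2 and 3.24, 4.08 and 2.34 CPM at day 6, with no call. It shares 466 exonic bases with a gene on the opposite strand.

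Mmp27 was near the lower limit, at 1.48, 1.28 and 1.02 CPM in skull controls, 1.97, 1.60 and 1.71 CPM at day 2 and 0.962, 0.742 and 0.623 CPM at day 4. It fell between days 2 and 4 (-1.16 ± 0.32, adjusted p = 0.0277), a call that ended without any of 5 single libraries (adjusted p of 0.0562 to 0.103). In cortex it did not pass the filter, with 3 counts in controls and 57 at day 6, a ratio of 26.5 (95% counting interval 8.62 to 132). Its cortex levels were 0, 0.112 and 0 CPM in controls, 0.166, 0.205 and 0.324 CPM at day 2 and 0.412, 1.14 and 1.94 CPM at day 6. Mmp23 was not called within either tissue, from 0.669 to 4.08 CPM in cortex and 73.6 to 130.2 CPM in skull. Mmp21 was under 1 CPM in every library and was not tested.

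Among the 7 proteoglycan-cleaving Adamts genes, 3 rose in cortex at day 2 (14.7% of all genes rose) and 4 rose in skull at day 2 (17.8% of all genes). Adamts1, an early-response protease of versican and aggrecan, was at 12.9, 9.33 and 9.20 CPM in cortex controls, 53.1, 90.7 and 76.0 CPM at day 2 and 17.5, 29.5 and 24.5 CPM at day 6. The 3 cortex groups did not overlap. Adamts1 rose at day 2 (2.81 ± 0.25, adjusted p = 2.89e-05) and at day 6 (1.19 ± 0.24, adjusted p = 0.0100), and fell between them (-1.62 ± 0.23, adjusted p = 0.00234). The day 6 call against control ended without control replicate 2 or 3 (adjusted p = 0.0538 and 0.0540). In skull it was at 148, 70.7 and 113 CPM in controls, 191, 209 and 271 CPM at day 2 and 78.5, 70.1 and 70.6 CPM at day 4. Adamts1 rose at day 2 (1.01 ± 0.25, adjusted p = 0.0140) and fell by day 4 (-1.61 ± 0.25, adjusted p = 0.00369), to a level that overlapped the controls.

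The aggrecanases Adamts4 and Adamts5 rose in skull. Adamts4 was at 33.1, 21.1 and 25.2 CPM in skull controls, 88.8, 71.1 and 98.4 CPM at day 2 and 41.9, 57.7 and 42.2 CPM at day 4, with no overlap between groups. It rose at day 2 (1.70 ± 0.20, adjusted p = 0.000482) and day 4 (0.84 ± 0.20, adjusted p = 0.0320), and fell between them (-0.87 ± 0.19, adjusted p = 0.0140). The day 4 call against control ended without any of 4 single libraries (adjusted p of 0.0565 to 0.117), and that between days without any of 3 (adjusted p of 0.0534 to 0.0597). In cortex, where Adamts4 is known from oligodendrocytes, it was not called, at 10.6, 20.8 and 14.7 CPM in controls, 10.9, 22.0 and 26.5 CPM at day 2 and 12.2, 14.9 and 15.9 CPM at day 6.

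Adamts5 was at 48.4, 38.0 and 43.1 CPM in skull controls, 129.7, 94.7 and 164 CPM at day 2 and 76.2, 63.8 and 62.1 CPM at day 4. Adamts5 rose at day 2 (1.58 ± 0.19, adjusted p = 0.000512) and fell by day 4 (-0.94 ± 0.19, adjusted p = 0.00832), when its change against control was not called (0.64 ± 0.19, adjusted p = 0.0592). Cortex levels of Adamts5 were 2.93, 3.31 and 4.75 CPM in controls, 7.04, 9.02 and 7.82 CPM at day 2 and 5.66, 5.27 and 5.74 CPM at day 6. All injured libraries were above the controls, and the rise was called at day 2 (1.12 ± 0.23, adjusted p = 0.00253).

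Adamts9, which cleaves versican and is made by endothelial cells among others, was at 5.65, 2.05 and 2.29 CPM in cortex controls, 12.6, 25.8 and 24.5 CPM at day 2 and 3.96, 7.74 and 6.95 CPM at day 6. Its day 2 libraries were above all others. Adamts9 rose at day 2 (2.66 ± 0.44, adjusted p = 0.00186) and fell by day 6 (-1.76 ± 0.43, adjusted p = 0.0277), a call that ended without any of 4 single libraries (adjusted p of 0.0731 to 0.0939). The 5 endothelial markers rose in cortex at day 2 (5 of 5), from 91.3 to 96.5 CPM summed in controls, against 158 to 263 CPM at that time, and their part in the result was not tested. In skull Adamts9 was at 112, 68.4 and 85.0 CPM in controls, 101, 95.5 and 90.3 CPM at day 2 and 129.8, 140.5 and 122 CPM at day 4. Adamts9 rose at day 4 (0.56 ± 0.15, adjusted p = 0.0478), and leaving out any of 5 single libraries ended this call (adjusted p of 0.0589 to 0.159). Of its exonic bases, 590 overlap genes on the opposite strand.

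Adamts15 was at 10.1, 6.51 and 10.8 CPM in cortex controls, 8.20, 9.94 and 5.82 CPM at day 2 and 12.9, 16.4 and 12.2 CPM at day 6, and rose between the injured groups (0.79 ± 0.24, adjusted p = 0.0442). In skull Adamts15 was at 22.7, 19.9 and 21.5 CPM in controls, 24.3, 27.9 and 27.6 CPM at day 2 and 25.1, 21.8 and 23.1 CPM at day 4, and rose at day 2 (0.32 ± 0.11, adjusted p = 0.0409). Both calls were small and each ended without any of 5 single libraries (adjusted p of 0.0766 to 0.159 in cortex, and 0.0547 to 0.120 in skull). The remaining proteoglycan-cleaving members were not called within a tissue: Adamts8 ranged from 2.97 to 4.84 CPM in cortex and 2.80 to 6.97 CPM in skull, and Adamts20 from 16.3 to 23.9 CPM and 0.577 to 4.30 CPM.

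Of the 3 procollagen N-propeptidases, which trim collagen precursors before fibrils form, 2 fell in skull at day 2, where 16.6% of all genes fell. Adamts2 was at 416, 287 and 351 CPM in skull controls, 275, 224 and 227 CPM at day 2 and 369.6, 415 and 419.9 CPM at day 4. Its day 2 libraries were below both other groups, as a fall (-0.54 ± 0.14, adjusted p = 0.0139) followed by a rise (0.73 ± 0.14, adjusted p = 0.00580). Without day 2 replicate 2 the call of the fall ended (adjusted p = 0.0531). In cortex Adamts2 was not called, at 15.2, 7.21 and 7.25 CPM in controls, 19.7, 19.0 and 10.4 CPM at day 2 and 15.2, 15.2 and 11.6 CPM at day 6.

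Adamts14 followed the same course in skull, but rose in cortex at day 2. Skull levels of Adamts14 were 73.8, 52.3 and 64.9 CPM in controls, 41.2, 32.3 and 35.2 CPM at day 2 and 68.3, 62.9 and 65.2 CPM at day 4. Controls and day 4 overlapped, and day 2 lay below both: Adamts14 fell at day 2 (-0.81 ± 0.13, adjusted p = 0.00162) and rose by day 4 (0.85 ± 0.13, adjusted p = 0.00241). In cortex it was at 0.838, 0.223 and 0.416 CPM in controls, 1.39, 3.23 and 2.21 CPM at day 2 and 0.463, 0.595 and 1.37 CPM at day 6. There it rose at day 2 (2.21 ± 0.57, adjusted p = 0.0111), a call that ended without day 2 replicate 2 (adjusted p = 0.0626). Its cortex change at day 6 was not called against control or against day 2. Adamts3, the third of these enzymes, was not called within a tissue, from 8.44 to 35.6 CPM in cortex and 9.32 to 14.3 CPM in skull.

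Adamts7 and Adamts12, which cleave cartilage oligomeric matrix protein, were higher in injured skull. Adamts12 was at 49.9, 40.9 and 42.5 CPM in skull controls, 77.9, 56.9 and 70.4 CPM at day 2 and 51.3, 64.8 and 51.4 CPM at day 4, and rose at day 2 (0.62 ± 0.14, adjusted p = 0.00766). In cortex Adamts12 was at 1.13, 0.781 and 0.791 CPM in controls, 1.83, 0.871 and 0.971 CPM at day 2 and 2.11, 8.75 and 7.03 CPM at day 6. Its day 2 change there was not called. All day 6 libraries were above the rest, and Adamts12 rose at day 6 against control (2.72 ± 0.49, adjusted p = 0.00291) and against day 2 (2.28 ± 0.48, adjusted p = 0.00933).

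Adamts7 was at 9.68, 10.8 and 10.8 CPM in skull controls, 14.2, 12.2 and 16.3 CPM at day 2 and 13.9, 17.2 and 16.2 CPM at day 4, and rose at day 2 (0.45 ± 0.15, adjusted p = 0.0402) and day 4 (0.59 ± 0.15, adjusted p = 0.0350). In each comparison, leaving out any of 4 single libraries ended the call (adjusted p of 0.0893 to 0.143 at day 2, and 0.0799 to 0.116 at day 4). In cortex it was not called, at 1.26, 1.30 and 1.04 CPM in controls, 0.831, 2.00 and 1.78 CPM at day 2 and 0.257, 2.84 and 4.20 CPM at day 6.

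Adamts10 and Adamts17, related proteases linked to fibrillin microfibrils, dipped in skull at day 2. Adamts10 was at 293, 198 and 240.4 CPM in skull controls, 160.4, 142 and 119.7 CPM at day 2 and 307, 279.8 and 312 CPM at day 4. Adamts17 was at 14.3, 8.85 and 12.6 CPM in skull controls, 6.64, 6.27 and 3.81 CPM at day 2 and 18.0, 18.8 and 20.8 CPM at day 4. For both, every day 2 library lay below every other skull library. Adamts10 fell at day 2 (-0.79 ± 0.15, adjusted p = 0.00319) and rose by day 4 (1.09 ± 0.15, adjusted p = 0.00137). Adamts17 likewise fell (-1.09 ± 0.24, adjusted p = 0.00647) and rose (1.78 ± 0.24, adjusted p = 0.00120). In cortex neither was called. There Adamts10 was at 29.4, 25.4 and 20.7 CPM in controls, 24.8, 37.0 and 23.2 CPM at day 2 and 28.9, 41.4 and 39.1 CPM at day 6, and Adamts17 was at 10.4, 7.03 and 7.33 CPM, 4.60, 7.53 and 6.52 CPM and 7.83, 7.65 and 7.27 CPM in the same order.

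Adamts6, the relative of Adamts10, was at 11.0, 11.5 and 9.29 CPM in skull controls, 18.2, 12.9 and 20.1 CPM at day 2 and 14.9, 23.3 and 18.1 CPM at day 4. It rose at day 2 (0.69 ± 0.21, adjusted p = 0.0275) and day 4 (0.83 ± 0.21, adjusted p = 0.0353), and each call ended without any of 4 single libraries (adjusted p of 0.0525 to 0.105, and 0.0621 to 0.134). In cortex Adamts6 was not called, at 6.91, 5.02 and 6.00 CPM in controls, 7.81, 6.20 and 9.06 CPM at day 2 and 6.18, 6.18 and 7.76 CPM at day 6. Adamts13, which cuts von Willebrand factor, was not called in cortex (0.808 to 2.01 CPM) and did not pass the filter on low counts in skull (0.133 to 1.02 CPM). Adamts16 ranged from 4.48 to 10.4 CPM in cortex and 0.0641 to 2.69 CPM in skull, and Adamts18 from 0.309 to 2.72 CPM and 4.27 to 13.3 CPM, with no call within a tissue.

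Of the inhibitors, Timp1, which is made on injury by many cells including astrocytes and osteoblasts, had the lowest adjusted p of all members in cortex. It was at 1.05, 1.04 and 1.67 CPM in controls, 46.4, 82.8 and 64.2 CPM at day 2 and 8.65, 14.6 and 12.2 CPM at day 6, with no overlap between groups. Timp1 rose at day 2 (5.69 ± 0.30, adjusted p = 6.68e-07) and at day 6 (3.24 ± 0.30, adjusted p = 8.96e-05), and fell between them (-2.45 ± 0.25, adjusted p = 0.000218). Skull levels of Timp1 were 87.3, 166 and 120.3 CPM in controls, 1038, 1039 and 1161 CPM at day 2 and 129.7, 258 and 196 CPM at day 4. The day 2 libraries stood above all others, whereas controls and day 4 overlapped. Timp1 rose at day 2 (3.12 ± 0.30, adjusted p = 0.000317), fell by day 4 (-2.47 ± 0.29, adjusted p = 0.00123) and was not called at day 4 against control (0.64 ± 0.28, adjusted p = 0.177).

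Timp3 and Timp4 fell in skull, whereas Timp2 was not called within a tissue. Timp2, which also takes part in Mmp2 activation with Mmp14, was at 375, 227 and 244 CPM in cortex controls, 377, 369 and 225 CPM at day 2 and 317, 411 and 389 CPM at day 6. In skull Timp2 was at 1231, 988 and 1147 CPM in controls, 978, 875 and 959 CPM at day 2 and 1097, 1283 and 1143 CPM at day 4. It was not called in any comparison within a tissue, with changes at day 2 of 0.20 ± 0.24, adjusted p = 0.619 in cortex and -0.26 ± 0.11, adjusted p = 0.0820 in skull.

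Timp3, which binds to the matrix and also inhibits Adam17 and aggrecanases, was at 191, 182 and 180.1 CPM in skull controls, 129, 150.4 and 158 CPM at day 2 and 158, 143 and 132 CPM at day 4. All injured libraries were below the controls, with small falls at day 2 (-0.34 ± 0.10, adjusted p = 0.0221) and day 4 (-0.35 ± 0.10, adjusted p = 0.0461). These calls ended without any of 3 and 4 single libraries (adjusted p of 0.0543 to 0.0874 at day 2, and 0.0968 to 0.172 at day 4). In cortex Timp3 was not called, at 56.3, 35.5 and 37.6 CPM in controls, 45.6, 50.6 and 43.2 CPM at day 2 and 29.6, 42.8 and 36.3 CPM at day 6.

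Timp4, an inhibitor known from brain and heart, was at 15.0, 4.59 and 9.63 CPM in skull controls, 1.83, 3.47 and 1.84 CPM at day 2 and 3.34, 1.90 and 3.82 CPM at day 4. It fell at day 2 (-2.03 ± 0.46, adjusted p = 0.00889) and day 4 (-1.68 ± 0.45, adjusted p = 0.0457), the latter call ending without any of 5 single libraries (adjusted p of 0.0856 to 0.145). The neuron and astrocyte markers fell beside it in skull, as given for Mmp24, and their part was not tested. Cortex levels of Timp4 were 40.0, 31.1 and 28.2 CPM in controls, 33.6, 38.3 and 41.7 CPM at day 2 and 27.6, 24.5 and 28.9 CPM at day 6, and fell between days 2 and 6 (-0.49 ± 0.14, adjusted p = 0.0381), a call that ended without any of 5 single libraries (adjusted p of 0.0793 to 0.140). Timp1, Timp3 and Timp4 each lie within a synapsin gene (Syn1, Syn3 and Syn2) on the opposite strand, with shared exonic bases for Timp4 alone, 90 of them. Exonic bases shared with genes on the opposite strand also numbered 637 for Mmp24, 489 for Adamts8, 157 for Mmp12 and 122 for Adamts7.

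The day 2 responses of cortex and skull were set against each other, since day 2 was sampled in both tissues. Of 37 members tested in both, 7 rose in both: Adamts1, Adamts5, Mmp12, Mmp19, Mmp3, Mmp9 and Timp1. They were 63.6% of the 11 that rose in cortex and 50% of the 14 that rose in skull. Among all genes the shares were 44.4% of 2633 and 39.4% of 2968. Adamts14 rose in cortex and fell in skull, and Mmp17 fell in both.

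The difference of the 2 responses was tested itself, over 12 libraries. Of 40 members tested, 13 had a higher change in cortex and 0 a lower one by edgeR, where 17.6% of all genes were called (14.0% higher in cortex and 3.60% lower). Lower changes in cortex numbered 2 at an unadjusted p under 0.05, 1 by DESeq2 and 0 by limma voom. The members' median difference was 0.76 and that of all genes 0.20. Mmp12 had the largest called difference, of 6.39 ± 0.89, adjusted p = 0.000739, followed by Mmp8 at 4.91 ± 0.61, adjusted p = 0.000359. Cortex controls held 3 counts of Mmp12 and 4 of Mmp8 in all, so the size of these differences depends on the prior count. Adamts14 came next at 3.09 ± 0.50, adjusted p = 0.00199, with opposite directions in the 2 tissues. Timp1 responded more in cortex by 2.62 ± 0.38, adjusted p = 0.00110, and Adamts9 by 2.61 ± 0.53, adjusted p = 0.00836.

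Mmp13 and Mmp3, by contrast, gave no called difference: it was 0.46 ± 0.78, adjusted p = 0.728 for Mmp13 and 5.35 ± 2.52, adjusted p = 0.184 for Mmp3, with wide errors. For Timp4 (2.29 ± 0.53, adjusted p = 0.0143) and Mmp24 (2.17 ± 0.60, adjusted p = 0.0310), the difference came with a fall in skull and no call in cortex at day 2. The call for Mmp19 (1.45 ± 0.31, adjusted p = 0.00823) ended with limma voom (adjusted p = 0.0613). The Mmp24 call ended without any of 10 single libraries (adjusted p of 0.0524 to 0.0811), that of Mmp25 (2.33 ± 0.72, adjusted p = 0.0444) without any of 9 (adjusted p of 0.0624 to 0.132) and that of Adamts10 (1.02 ± 0.30, adjusted p = 0.0348) without any of 7 (adjusted p of 0.0677 to 0.0825). Adamts4 and Adamts5, which had the larger response in skull, were not called (adjusted p = 0.0848 and 0.401).

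**Figure D3:**
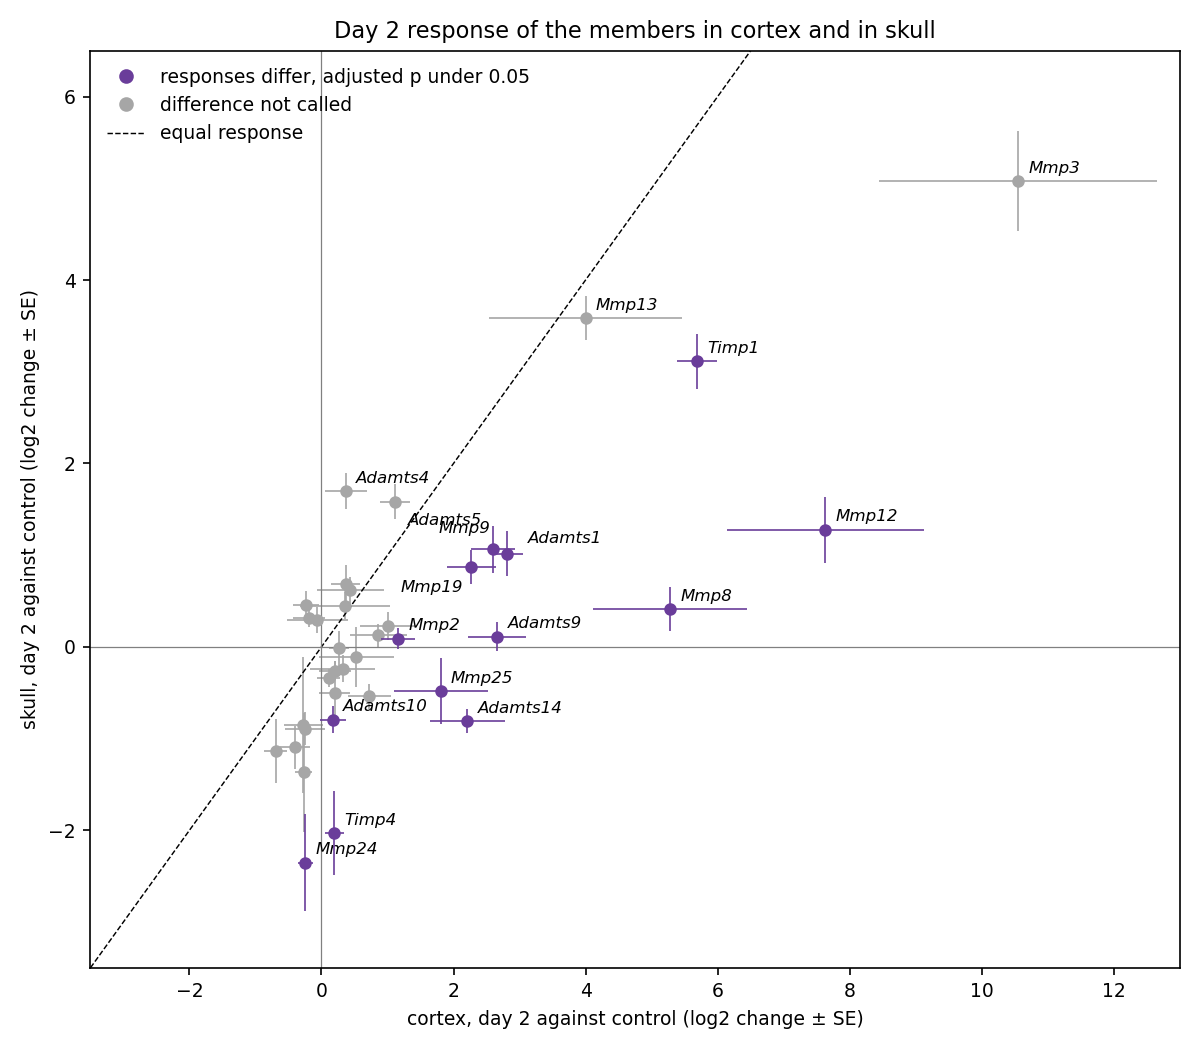
Log2 change ± SE at day 2 against control in cortex (horizontal axis) and in skull (vertical axis) for the 37 members tested in both; purple points have a difference between tissues with adjusted p under 0.05, and the dashed line marks equal change. All purple points lie to the right of the line, with Mmp12 and Mmp8 the farthest of them, whereas Mmp13 lies within its error of the line.

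Without injury, the tissues differed in nearly all members. Of 39 tested between the controls, 30 were higher in skull and 7 in cortex, where 70.9% of all genes were called (36.4% higher in skull and 34.5% in cortex). The libraries of the tissues did not overlap for 37 of the 39, against 76.7% of all genes. The members' median, cortex minus skull, was -3.31, and that of all genes was -0.03. For Mmp13 the cortex controls were below the skull controls by -13.17 ± 0.70, adjusted p = 1.51e-05, and for Mmp8 by -9.14 ± 0.56, adjusted p = 1.56e-05. Mmp2 differed by -8.65 ± 0.17, adjusted p = 1.07e-06. Mmp9 differed by -7.88 ± 0.26, adjusted p = 1.67e-06 and Timp1 by -6.66 ± 0.33, adjusted p = 8.26e-06. Mmp3 had no count in cortex controls and 480 in skull controls, at least 276-fold lower in cortex against the floor of 3 counts.

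The 7 members higher in cortex were Mmp17 (4.57 ± 0.45, adjusted p = 0.000198), Adamts20 (2.76 ± 0.34, adjusted p = 0.000299), Adamts16 (2.38 ± 0.70, adjusted p = 0.0204), Mmp24 (2.27 ± 0.47, adjusted p = 0.00545), Timp4 (1.72 ± 0.42, adjusted p = 0.00969), Adamts3 (0.98 ± 0.34, adjusted p = 0.0364) and Mmp15 (0.68 ± 0.14, adjusted p = 0.00353). The call of Adamts3 ended without any of 5 single libraries (adjusted p of 0.0641 to 0.0986), and that of Adamts16 without cortex control replicate 1 or skull control replicate 3 (adjusted p = 0.0654 and 0.0812). Timp2 and Timp3 were higher in skull, by -2.03 ± 0.22 and -2.13 ± 0.19 as cortex minus skull.

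To compare genes with each other, levels were divided by exonic length, giving CPM per kilobase. In cortex controls the inhibitor Timp2 led with 76.0 ± 21.9 CPM per kilobase (SD, n = 3), followed by Mmp17 with 33.3 ± 8.05. At day 2 Timp2 (87.3 ± 23.1) and Timp1 (72.6 ± 20.5) were indistinguishable within their spread. By day 6 Timp2 led with 100.4 ± 13.2, and Mmp12 was next with 36.4 ± 23.0, within its spread of Mmp17 at 25.4 ± 2.50. The 4 Timp genes made up a mean of 52.4% of the members' summed CPM per kilobase in cortex controls, 63.0% at day 2 and 46.8% at day 6. The Mmp genes made up 33.0%, 21.8% and 42.1% in the same order. As summed levels, Mmp genes stood at 56.5 ± 5.71, 60.8 ± 10.1 and 118.8 ± 46.7 CPM per kilobase (SD, n = 3), and Timp genes at 92.2 ± 25.2, 176 ± 31.1 and 126 ± 17.7. The lower Mmp share at day 2 thus came without a lower Mmp sum.

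In skull controls Mmp13 (430 ± 59.6 CPM per kilobase), Mmp2 (349 ± 43.1) and Timp2 (303 ± 33.3) led, neighbours in this order lying within their spread. At day 2 Mmp13 reached 5152 ± 1200 and Timp1 1215 ± 79.5, and Mmp13 alone was a mean of 64.8% of the members' total. At day 4 Mmp13 was at 943 ± 259 and Mmp2 at 412 ± 41.2. Mmp genes made up a mean of 64.0% in skull controls, 78.5% at day 2 and 71.7% at day 4, and Timp genes 26.8%, 19.2% and 21.1%. Their summed levels in the same order were 1153 ± 17.3, 6225 ± 1307 and 1936 ± 385 CPM per kilobase for Mmp genes, and 483 ± 9.64, 1499 ± 87.4 and 567 ± 96.0 for Timp genes. At day 2 the Timp share was lower than in controls although the Timp sum was higher. The 18 Adamts genes made up at most 17.8% of the total in any library of either tissue.

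**Figure D4:**
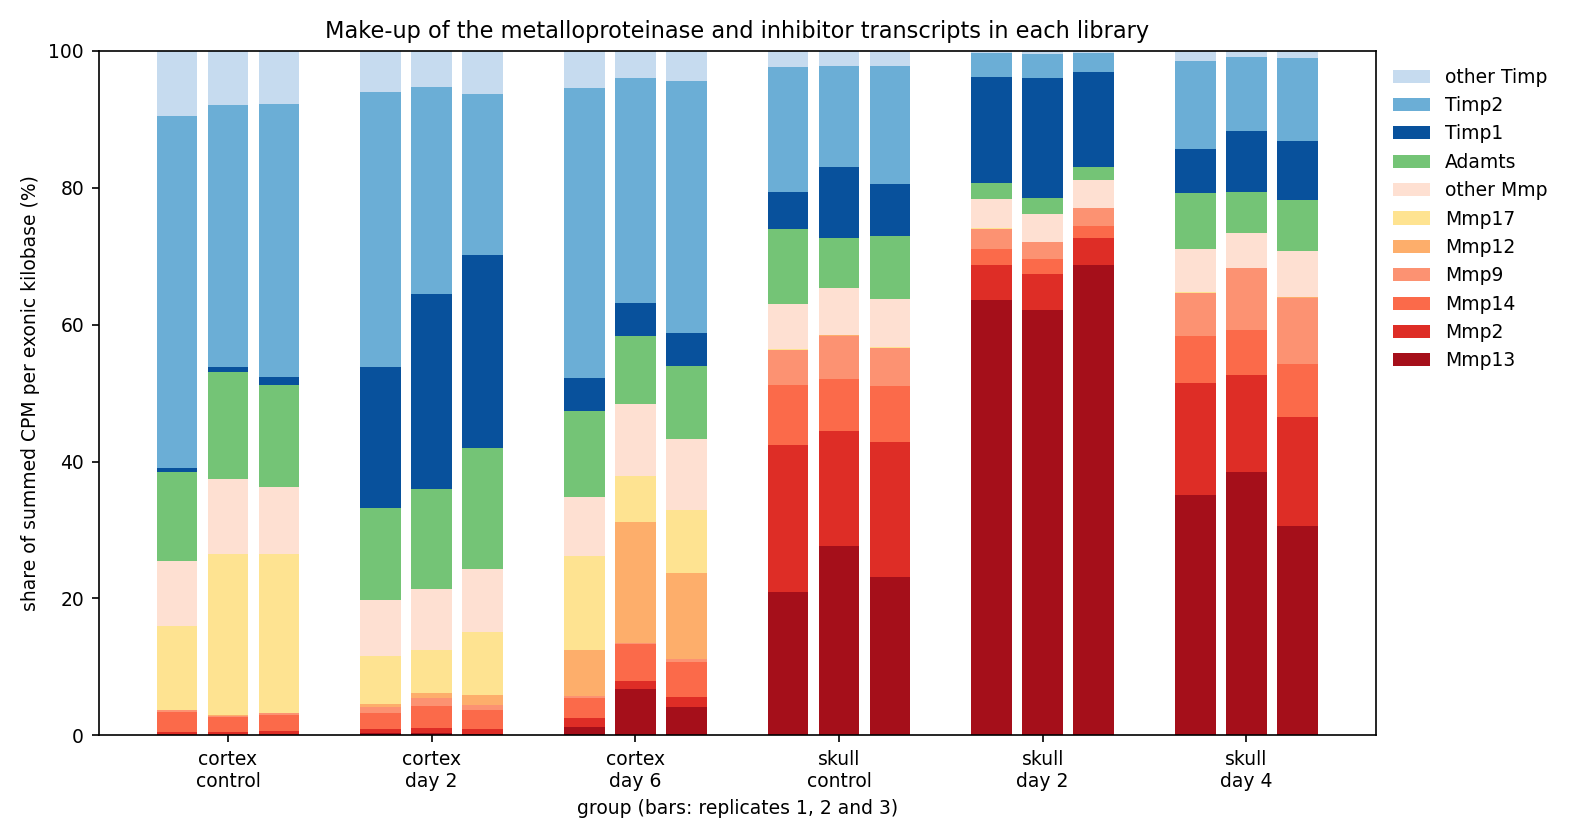
Share (%) of the members' summed CPM per exonic kilobase taken by each gene or class (vertical axis) in each of the 18 libraries (bars, 3 per group on the horizontal axis). Blue inhibitor shares are largest in cortex, with Timp1 widening at day 2, while Mmp13 in dark red takes 62.1% to 68.7% of the 3 skull day 2 libraries.

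The genes that activate, clear or oppose these proteases were followed as a list of 15, of which 14 were tested. In cortex at day 2, 4 rose and 1 fell, with the shares of all genes called as given above. A2m, the protease-trapping alpha-2-macroglobulin, rose by 5.18 ± 0.27 (adjusted p = 2.33e-07), and Plat, the tissue plasminogen activator, rose by 0.68 ± 0.14. At day 6, 6 rose, among them Plau, the urokinase that generates plasmin, by 3.65 ± 0.46. In skull at day 2, 9 rose and 4 fell: Plau rose by 1.52 ± 0.13, Pcsk5, a proprotein convertase, by 1.49 ± 0.13, and Plaur, the urokinase receptor, by 2.07 ± 0.22. At day 4, 3 rose and 2 fell against control, and 2 rose and 8 fell against day 2. Their median log2 change was 0.24 in cortex at day 2 and 0.61 in skull at day 2, beside the medians of all genes given above.

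The ADAM family, related to the Adamts family, includes membrane-bound shedding enzymes. For the lists in this paragraph, the shares of all genes that rose and fell were 14.7% and 9.99% in cortex at day 2, and 7.93% and 2.39% at day 6. In skull they were 17.8% and 16.6% at day 2, and 5.83% and 4.79% at day 4. Of 10 tested ADAM genes, 6 rose and 1 fell in cortex at day 2, and 6 rose and 1 fell in skull at day 2. Adam17, the shedding enzyme of TNF, rose in cortex by 1.14 ± 0.13, and Adam9 rose in skull by 1.23 ± 0.10. At day 6 in cortex 2 rose and 1 fell, and at day 4 in skull 3 rose and 1 fell. Of 16 matrix substrates, 6 rose and 2 fell in cortex at day 2, where the brain proteoglycan Bcan fell by 1.07 on the log2 scale and von Willebrand factor, Vwf, rose by 2.40 ± 0.18. At day 6 in cortex 10 rose, including the collagen Col3a1 by 5.51 ± 0.82. In skull 7 rose and 2 fell at day 2, and 5 rose at day 4, with elastin, Eln, up by 0.88 ± 0.10 and 1.06 ± 0.10.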

How the data were processed

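Poly(A) RNA from cortex and interparietal bone was sequenced as paired reads, per the labels' protocols. The authors deposited raw counts per gene name for all 18 libraries. Reads were aligned with HISAT2 2.1.0 to mm10, per the submitters' processing notes. The sources used here do not name the counting program or annotation, and whether strand was used is not given in them. The table had 26783 lines, of which 865 were surplus identical copies and were dropped. No column was left unmapped (0). No pair of libraries of the same group agreed within sampling noise, and pairs from different groups were not compared in this way.

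The main test was edgeR 4.0.16 (R 4.3.3), quasi-likelihood, with TMM scaling, filterByExpr and a prior count of 0.125, fitted to the 9 libraries of each tissue, to 12 for the difference of the day 2 responses and to 6 for the controls. P-values were two-sided and Benjamini-Hochberg adjusted over all genes tested. The SE is the log2 change divided by the square root of F. A fold against a group at 0 uses a floor of 3 counts over the group, and ratios on 1 to 3 counts have 95% intervals for counting error only; PCR duplicates are not independent molecules. Exonic lengths and positions came from GENCODE M21. Alternatives included DESeq2 1.42.0, limma 3.58.1 (voom), other scalings and filters, a replicate block and leaving out each library. Scripts were tested on simulated data.

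Every member was accounted for. Values per library are given for the Timp genes and for members called within a tissue, or between the day 2 responses, that averaged 1 CPM or more in some group; the others get their range. Values of some others were added after they were seen. Of each fixed list, up to 3 called genes with the smallest adjusted p per comparison were named. The members and lists were chosen with earlier results of these data known.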

Additional observations from a re-analysis of the deposited data

Results flagged for a closer look

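For 13 members the day 2 change differed between cortex and skull by the test of the difference itself (edgeR's quasi-likelihood test over 12 libraries, adjusted p under 0.05). The difference, cortex minus skull on the log2 scale, was 6.39 for Mmp12, 4.91 for Mmp8, 3.09 for Adamts14, 2.62 for Timp1 and 2.61 for Adamts9. For Mmp12 and Mmp8 its size depends on the prior count, as cortex controls held 3 and 4 counts of them. It was 2.33 for Mmp25, 2.29 for Timp4, 2.17 for Mmp24 and 1.85 for Adamts1. For Mmp9 it was 1.59, for Mmp19 1.45, for Mmp2 1.13 and for Adamts10 1.02. All 13 were higher in cortex. With 3 libraries in each group, no search for a single outlying library was made.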

How the results depend on the processing

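Of 133 calls of members over the 8 comparisons, 83 held under every alternative in which the member was tested. The other 50 ended under at least 1, and none changed direction. An alternative that left a member out was not counted for its call, as for Mmp10 and Mmp24 in skull at day 2. Calls that held throughout numbered 8 of 12 in cortex at day 2, 4 of 10 at day 6, 3 of 10 between them, 16 of 24 in skull at day 2, 0 of 11 at day 4 by edgeR and 12 of 16 between them, 7 of 13 for the difference of day 2 responses and 33 of 37 for the controls. Counts moved past 1.5 times in 2 comparisons other than by leaving out a library: cortex day 6 against day 2 gave 6 with limma voom, and skull day 4 against control gave 6 with limma voom and 5 with the compared groups alone. Leaving out single libraries gave 9 to 14 calls in cortex at day 2, 6 to 17 at day 6 (17 without day 6 replicate 1 and 6 without replicate 2) and 4 to 8 between the days (4 without day 6 replicate 3 and 6 without day 2 replicate 3). In skull it gave 17 to 23 at day 2, 0 to 13 at day 4 and 12 to 16 between the days. It gave 10 to 15 for the difference and 34 to 37 for the controls. Over all genes, the same steps gave 3136 to 4622 calls in cortex at day 2, 1005 to 2091 at day 6 and 910 to 1948 between the days. The skull ranges over all genes were 4024 to 6508 at day 2, 10 to 2537 at day 4 and 2260 to 3057 between the days. For the difference the range was 2185 to 3979, and for the controls 11652 to 12998. Shared replicate numbers were not treated as pairs in the main test. Correlations of same-numbered libraries ran from -0.62 to 0.40, and those of other-numbered libraries from -0.48 to 0.52. With 3 libraries in each group, these values cannot decide whether libraries were paired. With a replicate block, skull day 4 against control gave 2 calls in place of 11, and the other counts stayed within 1.5 times. DESeq2 gave 15 calls there. Without the 3714 genes at least 4-fold higher in cortex than skull controls, which include Mmp17, Mmp24, Adamts16 and Adamts20, the calls of Mmp16, Adamts7 and Adamts15 in skull at day 2 and of Timp4 and Adamts9 at day 4 ended. The cause of these changes was not tested. Between the cortex days, the call of Adamts12 ended with limma voom (adjusted p = 0.0559), and for the difference of responses that of Mmp9 ended with limma voom and with the block (adjusted p up to 0.0732), that of Timp4 with the block (0.0652) and that of Mmp19 with limma voom (0.0613). Mmp10, Mmp21 and Mmp27 in cortex, and Mmp21 and Adamts13 in skull, had too few counts to be tested.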
